A study of Mus musculus with 16 samples.

Results

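The 10 imprinted genes described here, H19, Igf2, Dlk1, Meg3, Peg3, Snrpn, Igf2r, Gnas, Kcnq1ot1 and Grb10, were followed through 16 ATAC-Seq libraries of mouse hematopoietic stem and progenitor cells (HSPCs). ATAC-Seq marks DNA that a transposase can reach. The peaks called in the 16 libraries were joined wherever any overlapped by 1 bp or more, which gave 296215 accessible regions, and the regions that touched a gene body or the 10 kb on either side were taken as that gene's locus. This placed 180 regions at the 10 loci, and no region fell in 2 of them. All positions are on the mm10 build, with genes from GENCODE M21.

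There were 4 genotypes with 4 libraries each. WT mice carried floxed Ep300 without Cre, P300KO mice carried Mx1-Cre with floxed Ep300, TET2KO mice lacked Tet2 in the germline, and P300KO_TET2KO mice combined both. All of them received poly(I:C), which drives Mx1-Cre in blood cells and beyond them, and Cre and loss of p300 always came together. Each library held 50000 HSPCs pooled from 2 mice of the same genotype, on a C57BL/6 background, in which the maternal and paternal copies of a gene do not differ in sequence. The comparison of interest set the 8 libraries without Tet2 (TET2KO and P300KO_TET2KO) against the 8 with Tet2 (WT and P300KO). Replicates 1 and 2 of every genotype belong to a first deposit set and replicates 3 and 4 to a second. Nothing states what separates the sets, and p-values measure the spread between pools of mice.

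Imprinted genes are expressed from the maternal or the paternal copy only. The choice is held by control regions at which the DNA of a single parental copy is methylated, the methylated copy being closed and the unmethylated copy open to binding proteins. At H19 and Igf2 the paternal copy is methylated upstream of H19, and Ctcf binds the unmethylated maternal copy and blocks Igf2 from its enhancers. At Kcnq1ot1, Peg3, Snrpn, Airn (a noncoding RNA inside Igf2r), Grb10 and Gnas the control regions lie over promoters and carry maternal methylation. Zfp57 keeps this methylation through the letters TGCCGC once the C next to G is methylated. Tet2 oxidizes methylated cytosine as a step toward its removal, so these loci offer sites where methylation and accessibility are tied to each other.

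The lists were 86039 to 137335 peaks long and longer in deposit set 2. They hold no read counts, so depth is unknown and a region without a peak is one not detected. WT replicate 1 stood apart, since 45% of its peaks had a −log10 q of at least 2 against 63.2% to 97.4% in the others, and it alone missed 9040 regions that the other 15 libraries shared, 8 of them at the imprinted loci. In deposit set 1 the share of peaks with such a q was 80.7% to 93.4% without Tet2 and 45% to 80.6% with it, without overlap. In set 2 it was 93.5% to 97.4% without Tet2 and 92.2% to 95.9% with it. The part of peak quality in the Tet2 differences was not tested. The starts of Kit, Cd34, Gata2, Myb, Meis1, Hlf and Flt3, genes that mark HSPCs, were open in 16 of 16 libraries. Among markers of mature cells, Ms4a1 (B cells) and Ly6g (granulocytes) had no peak in any library and Elane had one in 2. Some were open in most or all libraries, with Mpo in 16, Csf1r in 15 and S100a8 in 13 among granulocyte and monocyte genes, and Pax5, Lck, Klf1 and Col1a1 in 16. Cd8a had a peak in 8, Cd3e in 6, and Cd3g and Cd79a in 4 each. The part of other cells in the results was not tested.

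The sequences under the main regions are given first, from the mm10 reference of RefSeq. Upstream of H19, 2 regions lay in the control region, at chr7:142580036-142580896 and chr7:142581676-142582166, in the intergenic stretch between H19 and Igf2. The letters GGNGGCAG, the core of a Ctcf site, occurred 5 times in the 5 kb upstream of H19 on either strand, all of them in these regions and all on the minus strand, which is also the strand of H19. They are shown in capitals with their neighbours because the accessible summits follow them.
H19 upstream, chr7:142580298-142580327, minus strand: cgatgccgcgtGGTGGCAGtacaatactac
H19 upstream, chr7:142580753-142580782, minus strand: tgctaccgcgcGGTGGCAGcatactcctat
H19 upstream, chr7:142581779-142581808, minus strand: ggttgccgcacGGCGGCAGtgaagtctcgt
H19 upstream, chr7:142581898-142581927, minus strand: aatgccactagGGGGGCAGgacacatgcat
H19 upstream, chr7:142582023-142582052, minus strand: agttgccgcgtGGTGGCAGcaaaatcgatt

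At 4 loci with maternally methylated promoters, 201 bp around the strongest summit are shown on the plus strand, with each CpG, the site of methylation, in capitals. They are shown because these regions differ in strength as well as in CpG content. The Kcnq1ot1 and Grb10 windows come from strong regions, the Peg3 window from one of middling strength and the Snrpn window from a weak one.
Kcnq1ot1 start, chr7:143296515-143296715: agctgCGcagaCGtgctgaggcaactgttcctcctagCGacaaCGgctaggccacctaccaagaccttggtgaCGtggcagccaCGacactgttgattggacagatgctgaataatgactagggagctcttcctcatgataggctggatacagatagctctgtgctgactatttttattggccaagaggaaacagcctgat
Peg3 and Usp29 start, chr7:6729470-6729670: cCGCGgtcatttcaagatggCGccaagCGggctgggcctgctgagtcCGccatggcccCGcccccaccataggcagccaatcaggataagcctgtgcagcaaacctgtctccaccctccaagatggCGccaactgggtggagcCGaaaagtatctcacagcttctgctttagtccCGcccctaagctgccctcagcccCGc
Grb10 internal start, chr11:12025835-12026035: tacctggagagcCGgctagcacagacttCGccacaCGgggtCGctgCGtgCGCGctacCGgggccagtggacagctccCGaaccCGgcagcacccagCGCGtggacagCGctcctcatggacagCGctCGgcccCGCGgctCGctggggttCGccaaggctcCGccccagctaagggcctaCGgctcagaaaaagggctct
Snrpn start, chr7:60004115-60004315: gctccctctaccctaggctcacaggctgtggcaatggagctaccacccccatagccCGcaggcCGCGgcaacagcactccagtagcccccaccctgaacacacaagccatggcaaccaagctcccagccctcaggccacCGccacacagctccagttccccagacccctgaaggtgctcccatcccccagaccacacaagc

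The windows held 6 CpGs at Kcnq1ot1, 10 at Peg3, 21 at Grb10 and 4 at Snrpn. Of these, the Snrpn window alone held the Zfp57 letters, once, on either strand. Over their whole length, however, the regions held these letters 3 times at Kcnq1ot1, 7 times at Peg3, 4 times at Grb10 and 5 times at Snrpn. These whole-length counts were not compared with regions elsewhere. The Peg3 window also held AAGATGGC, part of the site of Yy1, a zinc finger protein known to bind repeated sites in the first intron of Peg3, 2 times. These letters were added to the search after the window had been read, and occurred at least 2 times in 12 of the 39310 windows (0.0305%) of regions found in all 16 libraries.

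The sharing of regions between libraries was counted at the imprinted loci and over all regions, without a test. Of the 180 regions, 19 (10.6%) were found in all 16 libraries, 72 (40%) in a single library and 89 in between, against 13.3% in all libraries and 45.6% in 1 library among the 296215 regions. By place, 61 regions lay within 1 kb of an annotated start, 56 in introns, 35 in exons and 28 between genes, and 11 of the 19 shared regions lay at a start. The shared regions fell at 8 of the 10 loci, 6 at Igf2r, 5 at Gnas, 3 at Grb10 and 1 each at H19, Igf2, Dlk1, Peg3 and Kcnq1ot1. Meg3 and Snrpn had none.

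Peak strength was read as a percentile within the library's own list, ranked by −log10 p, with 100 as the strongest peak. The mean percentile of the 19 shared regions ran from 49.5 to 93.5 with a median of 65.9, below the median of 80.8 over all 39310 shared regions. Of the 19, 7 had a mean of at least 80 and 8 a mean under 60. Regions seen in a single library had a median percentile of 11.3.

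The start of Kcnq1ot1, the noncoding RNA made from the paternal copy that silences neighbouring genes such as Cdkn1c, was the strongest region of all 10 loci. Its region at chr7:143295192-143297070 stood at the 93.5th percentile on average, between 90.8 and 94.9 in every library. The region nearest to it in strength among those at a start was the most 3′ annotated Gnas start, at chr2:174343920-174344979, with a mean of 91.5 and a range of 85.4 to 94.6. These ranges overlapped, so the order of both is not fixed by the libraries. The Grb10 region over an internal start, at chr11:12025410-12026863, followed with 89.6 and a range of 83.9 to 92.6. Grb10 encodes an adaptor protein that restrains insulin signalling and growth.

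Gnas encodes the alpha subunit of the stimulatory G protein and has several starts, some of them imprinted. Their order is Nesp, Nespas, the extra-large form, exon 1A and the common first exon. The most 3′ annotated start, described above, lies beyond the regions listed here and was not matched to any of these. Strength differed widely between the start regions of Gnas. The most 5′ start region shared by all libraries, at chr2:174284043-174285018, had a mean percentile of 55.6. The start of Nespas, an antisense RNA, at chr2:174295154-174296491, had a peak in 14 libraries with a mean of 34.3 in those. Further along, chr2:174327057-174328097 reached 88.3, chr2:174328918-174330333 reached 83.3 and chr2:174330388-174331163 reached 59.0, each in all libraries. The lowest value of the first of these, 84.8, lay above the highest of the Nespas start, 59.1, so that these regions did not overlap in any library.

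Igf2r encodes the receptor that clears Igf2 and is silenced on the paternal copy by Airn. The Igf2r start at chr17:12769076-12770143 stood at 49.5 in all 16 libraries, and the Airn start at chr17:12741137-12742000 at 47.0 in 15. The strongest region of the locus was at neither start. It lay in an Igf2r intron at chr17:12754446-12755642 with a mean of 90.9, between 87.5 and 93.6, and its window held a single CpG, whereas the window at the Igf2r start held 25. Strength and CpG content did not go together at Gnas either, where the most 3′ start had 1 CpG in its window and the region at chr2:174328918-174330333 had 21.

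Peg3, a zinc finger gene expressed from the paternal copy, shares its start with Usp29, and this region at chr7:6729049-6730603 had a mean percentile of 75.9. Snrpn, a splicing protein gene whose start holds the control region of the Prader-Willi locus, was weak. Its region at chr7:60003947-60004611, 438 bp from the nearest annotated start, had a peak in 12 libraries, 6 with Tet2 and 6 without, at a mean of 14.8. It was not detected in replicates 1 and 2 of P300KO or of TET2KO, all 4 of which belong to deposit set 1.

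At Dlk1, a Notch-like growth regulator, the start at chr12:109452922-109453584 had a peak in 15 libraries with a mean of 50.2, and a region about 6 kb upstream, at chr12:109446041-109446854, had one in all 16 with a mean of 58.1, the highest of this locus among regions found in at least 8 libraries. Its noncoding neighbour Meg3 had a region 570 bp from an internal start, at chr12:109542838-109543232, in 14 libraries with a mean of 49.7, the highest of this locus among regions found in at least 8 libraries. Within 1 kb of the first Meg3 start a peak was called in 1 library only. The control region between Dlk1 and Meg3 lies outside the 10 kb flanks, has no entry in the annotation used, and was not examined. Igf2, a fetal growth factor, had start regions of low strength, with 42.5 at chr7:142658648-142659679 in 15 libraries and 19.2 at chr7:142660525-142661074 in 14. Its only region shared by all libraries, at chr7:142663788-142664863 near the start of the antisense transcript Igf2os, had a mean of 55.2. The highest mean of the locus, 62.3, was that of an intergenic region on the Ins2 side, at chr7:142675704-142676233, in 14 libraries.

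**Figure D1:**
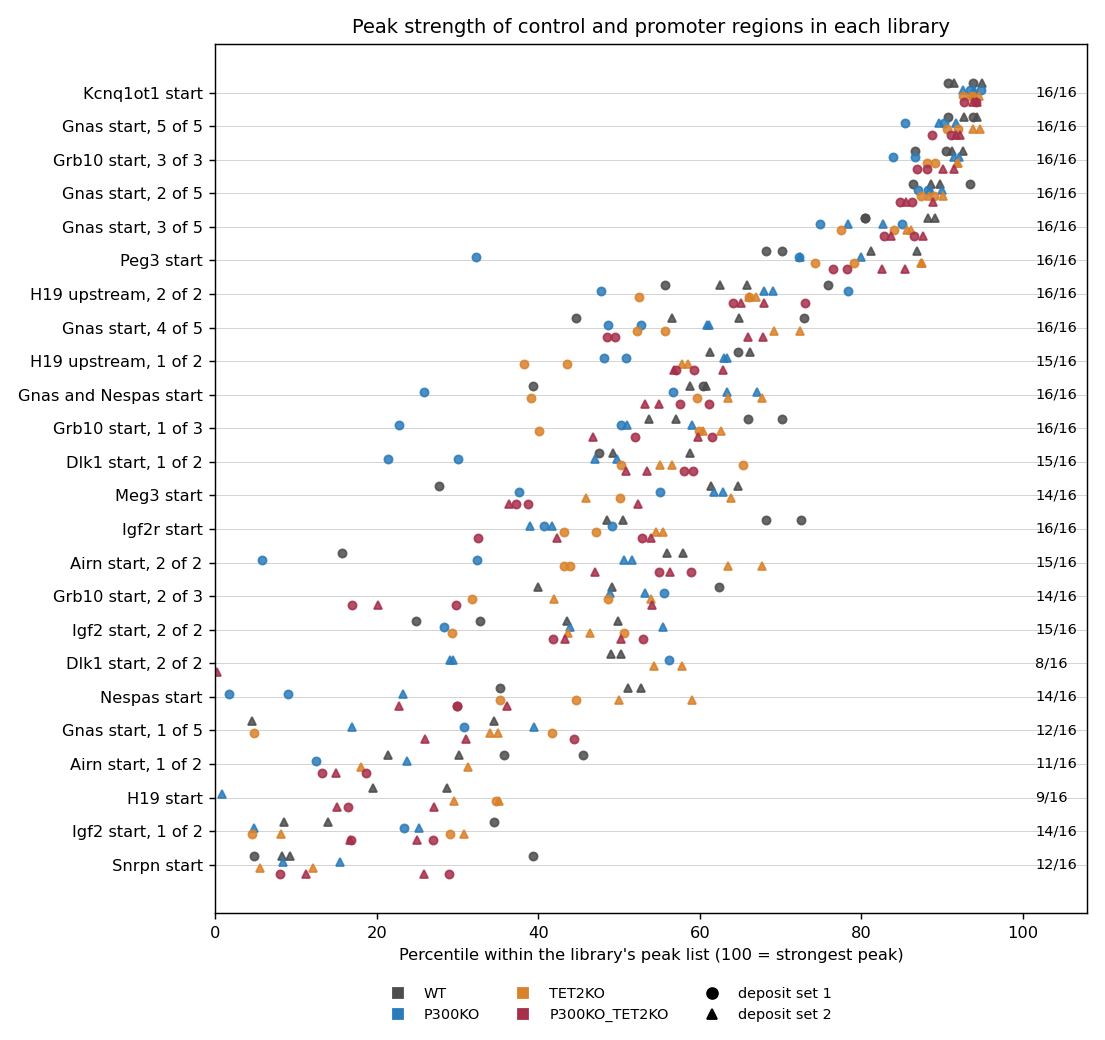
Percentile of each region within the peak list of each library (horizontal axis, 100 is the strongest peak) for the 24 regions within 1 kb of an annotated start or upstream of H19 that had a peak in at least 8 libraries. Points are single libraries, coloured by genotype and shaped by deposit set, regions with the same label are numbered 5′ to 3′ along the gene of the locus (Igf2r for Airn), and the number on the right counts libraries with a peak. The Kcnq1ot1 start stayed between 90.8 and 94.9, and the Snrpn start had a peak in 12 of 16 libraries at a mean of 14.8.

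The control region upstream of H19 was open in a narrow, regular pattern. The region nearer to H19, at chr7:142580036-142580896, had a peak in all 16 libraries with a mean percentile of 65.3, and the farther one in all but WT replicate 1 with a mean of 56.8. The H19 start itself, at chr7:142578135-142578645, had a peak in 9 libraries with a mean of 23. The 5 Ctcf strings printed above have their centres 2169, 2624, 3650, 3769 and 3894 bp upstream of the H19 start.

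In the nearer region the strongest summit of a library lay 0 to 23 bp from the centre of a string, with a median of 17, and 11 of 16 summits were next to the string nearest to H19 and 5 next to the other. In the farther region 13 of 15 summits were closest to the string at 3650 bp, 2 to that at 3894 bp, and none to that at 3769 bp. Of these 15 summits, 14 lay within 25 bp of a string, with a median of 6 bp. Both summits at the 3894 bp string came from TET2KO libraries, replicates 1 and 2, whose peaks there had percentiles of 38.3 and 43.5. Neither the position of summits nor the choice of string was tested against Tet2.

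**Figure D2:**
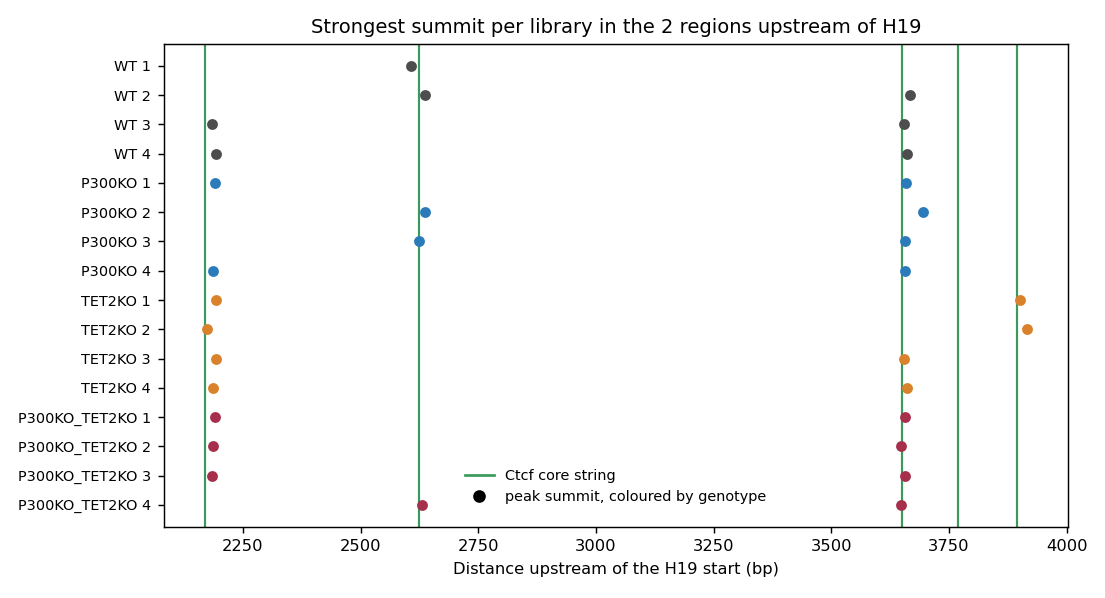
Position of the strongest peak summit of each library (rows) in the 2 accessible regions upstream of H19, as the distance from the H19 start in bp, with green lines at the centres of the 5 Ctcf core strings. All 16 summits of the nearer region and 14 of 15 in the farther region lay within 25 bp of a string, and WT replicate 1 had no peak in the farther region.

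The shared imprinted regions were described by their sequence. Windows of 201 bp around the summits of the 19 shared regions had a median GC content of 61.7% and a median of 10 CpGs, against 55.2% and 5 over all 39310 shared regions. Among regions at starts the gap was smaller, with 69.7% and 19 CpGs in 11 imprinted regions and 63.7% and 15 CpGs in all 17063. The Zfp57 letters stood in 3 of the 19 windows (15.8%) and in 9.76% of all shared windows. The Ctcf letters stood in 5 (26.3%) and in 13%. At starts alone the order for Zfp57 turned, with 1 of 11 imprinted windows (9.09%) against 16.1% of all 17063, while the Ctcf letters stood in 3 (27.3%) against 13.1%. Both strings were searched on both strands, and a match says nothing of binding. They are not independent, since the Ctcf letters with C in place of N hold the Zfp57 letters on the other strand, as in the H19 string at 3650 bp.

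The number of regions at the 10 loci was counted in cells with and without Tet2. In deposit set 1 the 4 libraries without Tet2 had 63, 55, 61 and 61 regions with a peak, and the 4 with Tet2 had 54, 58, 57 and 52. In deposit set 2 they had 89, 86, 75 and 73 without Tet2, and 80, 81, 70 and 76 with it. The groups overlapped within each set, and the sets differed from each other by far more than the Tet2 groups did. The means were 70.4 ± 12.5 (SD, n = 8) without Tet2 and 66.0 ± 12.1 (SD, n = 8) with it, a difference of 4.38 regions that was 4.75 within set 1 and 4 within set 2. It was 1.71 without TET2KO replicate 3, 2.14 without TET2KO replicate 4 and 11 with only peaks of a −log10 q of at least 2. By genotype, TET2KO exceeded WT by 5 regions and P300KO_TET2KO exceeded P300KO by 3.75. Per 10000 peaks of the list, which scales by its length but not by the strength of its peaks, the loci held 6.18 ± 0.441 regions without Tet2 and 5.69 ± 0.373 with it (SD, n = 8 each). This difference of 0.495 was 0.681 in set 1 and 0.310 in set 2, and it was 0.685 between TET2KO and WT and 0.305 between P300KO_TET2KO and P300KO. No test was run on these sums, since the loci were chosen.

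Locus by locus, 0 of the 10 differed in region count with Tet2 at an unadjusted exact p under 0.05. In the same two-sided permutation test, with labels permuted within p300 genotype and deposit set over 1296 arrangements, 1337 of 42801 gene loci (3.12%) did, and 0 of them kept an adjusted p under 0.05. Counts were higher without Tet2 at 6 loci, lower at 2 and equal at 2, and over all gene loci they were higher at 42.3% and lower at 46.2%, with a median difference of 0.375 regions against 0 over all gene loci. Grb10 and Igf2 had the largest differences over all 16 libraries, and the order of the loci was not fixed. Grb10 held 9, 12 and 17 regions as the lowest, median and highest count without Tet2 and 9, 10 and 15 with it, with means of 12.3 ± 2.76 and 10.9 ± 2.03 (SD, n = 8 each, exact permutation p = 0.231). At Igf2 the lowest, median and highest counts were 5, 6 and 9 without Tet2 and 2, 5.5 and 7 with it (exact permutation p = 0.222, n = 8 each). The difference at Igf2 was 2 regions between TET2KO and WT and 0.25 between P300KO_TET2KO and P300KO, and at Grb10 it was 2 and 0.75. The difference was 1.38 regions at Grb10 and 1.13 at Igf2. Without TET2KO replicate 4 it was 0.70 at Grb10 and 1.16 at Igf2, and without P300KO replicate 2 it was 0.68 at Igf2. In deposit set 1 it was 0.25 at Grb10 and 1.75 at Igf2, and in set 2 it was 2.5 and 0.5. At both loci the groups overlapped.

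Igf2r, with 16.1 ± 2.75 regions without Tet2 and 15.4 ± 3.70 with it, and Gnas, with 13.5 ± 1.85 and 12.9 ± 2.95, had the most regions. Without WT replicate 4 the difference was 1.55 at Igf2r and 1.36 at Gnas, above 1.25 at Grb10 and 1.11 at Igf2. It was −0.02 at Igf2r without P300KO replicate 2 and −0.07 at Gnas without WT replicate 1, and at Igf2r 2 in deposit set 1 and −0.5 in set 2. H19 had 4.13 ± 0.835 and 3.63 ± 1.06, Peg3 2.88 ± 1.46 and 2.63 ± 1.06, Meg3 4.63 ± 1.69 and 4.75 ± 1.16, and Kcnq1ot1 4.5 ± 2.14 and 4.63 ± 1.19. Dlk1 had 5.25 and Snrpn 0.875 regions on average in both Tet2 groups. Exact permutation p-values over these 8 loci ran from 0.444 to 1.

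**Figure D3:**
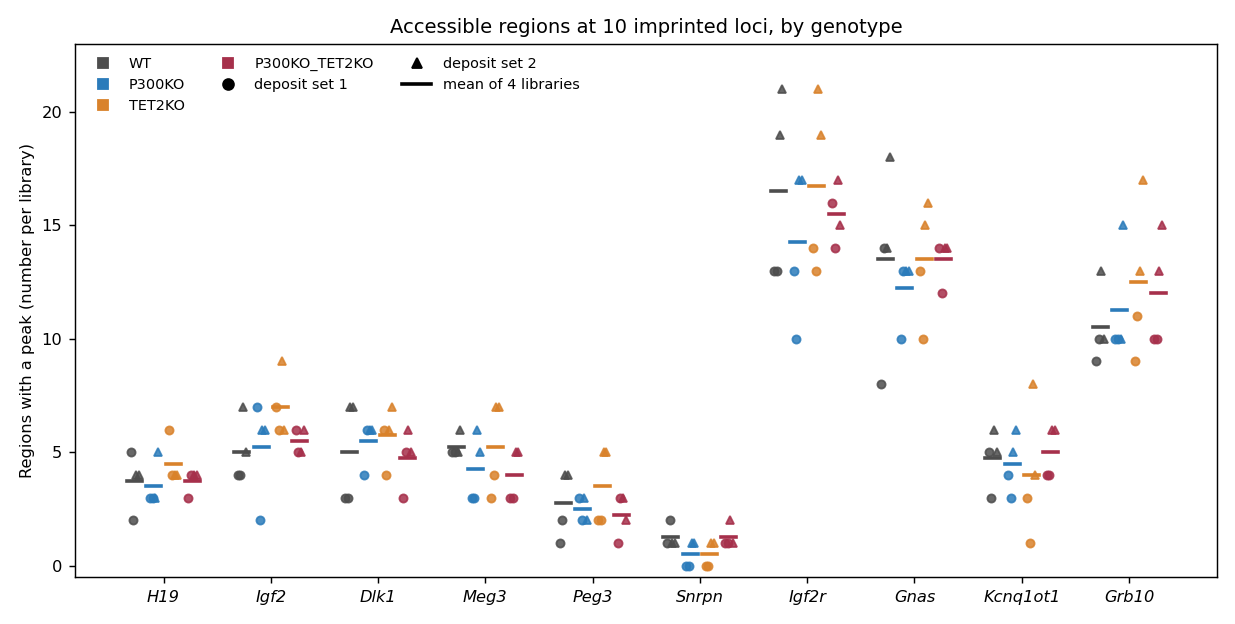
Number of accessible regions with a peak in each library (vertical axis) at the 10 imprinted loci, with points for single libraries, coloured by genotype and shaped by deposit set, and bars for the mean of 4 libraries. At each locus the genotypes overlapped, and at Grb10 the counts without Tet2 ran from 9 to 17 and those with Tet2 from 9 to 15.

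Presence of single regions was tested in the same way, and most of them could not have passed. Of the 161 imprinted regions found in some but not all libraries, 0 had an exact permutation p under 0.05 (smallest p = 0.167 with n = 8 libraries a group), against 686 of 256905 regions (0.267%). The spread of a region over p300 genotypes and deposit sets bounds its p, and 3 of the 161 imprinted regions, at Grb10, Meg3 and Igf2r, could reach a p under 0.05 at all. None of these 3 did, against 686 of 5509 such regions (12.5%), so the count of 0 says little of presence at these loci. With labels permuted within p300 genotype only, over 4900 arrangements, 0 imprinted regions passed (smallest exact permutation p = 0.214). The share of all regions that passed over these arrangements was not computed, so this 0 has nothing to be set against. No adjusted p passed over all regions. The widest gap was 3 libraries, at 9 regions, and at all 9 of the 161 (5.59%) the count was higher without Tet2. Of all 256905 regions, 3.75% had at least 3 more libraries without Tet2 and 1.65% at least 3 fewer. Among these were the H19 start (6 of 8 libraries without Tet2, 3 of 8 with it), an Igf2r intron region at chr17:12757912-12758308 (7 and 4), an intergenic region near Igf2 at chr7:142672025-142672472 (8 and 5) and one upstream of Dlk1 at chr12:109449859-109450587 (8 and 5). Over all 180 regions, 71 were found in more libraries without Tet2, 66 in more with it and 43 in equal numbers, which is 39.4% and 36.7% against 33.3% and 43.7% of all 296215 regions. No imprinted region was present in all 8 libraries of one group and absent from all 8 of the other, and 6 of all 296215 regions were.

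Gnas was the locus at which an alternative moved a call. With only peaks of a −log10 q of at least 2 in every list, the Nespas start region had a peak in 8 of 8 libraries without Tet2 and 3 of 8 with it (exact permutation p = 0.0278), the single imprinted region called under that rule, where 0.298% of all regions were. In the full lists such calls were 0.267% of all regions and 12.5% of those that could reach such a p. Under the q rule the latter share was not computed. In the full lists the Nespas start region had a peak in 8 and 6 libraries. The percentile of its peaks was 22.8, 35.7 and 59.1 (lowest, median, highest) in the 8 libraries without Tet2 and 1.64, 29.3 and 52.7 in the 6 with it. Nespas starts the antisense RNA that accompanies the imprint of the 5′ Gnas starts. Under the same q rule the whole Gnas locus held 9 to 16 regions without Tet2 and 4 to 16 with it, 2.13 more on average (exact permutation p = 0.0154), the lowest count being that of WT replicate 1. Without that library the Gnas difference was 1.23 (exact permutation p = 0.162) and the Nespas call stood (exact permutation p = 0.0278). The share of all regions called without that library was not computed. In deposit set 1 a larger share of peaks met the q rule without Tet2, with or without that library. The part of this in these calls was not tested. With the q rule 2129 of 38440 gene loci (5.54%) passed, 2061 of them with more regions without Tet2, and without WT replicate 1 it was 781 of 37464 (2.08%). With the strongest 50000 peaks of every list, Gnas held 5 to 8 regions without Tet2 and 4 to 6 with it, 1.13 more on average (exact permutation p = 0.037), where 728 of 27498 gene loci (2.65%) passed. Without WT replicate 1 the difference was 0.95 (exact permutation p = 0.0417), where 3.87% passed. In neither setting, with all 16 libraries, did any call over all loci or regions keep an adjusted p under 0.05. In the strongest 50000 peaks 0 imprinted regions had a presence call, against 1.14% of all regions.

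Strength of the shared regions was compared with limma over all 39310 regions found in every library, with genotype and deposit set as terms. None of the 19 imprinted regions was called at an adjusted p under 0.05 (smallest adjusted p = 0.352), against 97 of 39310 regions (0.247%), of which 79 were lower without Tet2. At an unadjusted p under 0.05 there were 3 of 19 imprinted regions and 10.7% of all. The median difference was 0.48 percentile points over the 19 and 0.11 over all, and 12 of 19 were higher without Tet2, as were 53.7% of all. The 8 libraries without Tet2 separated from the 8 with it in none of the 19 and in 0.0661% of all, a share at which none would be found among 19.

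The 3 regions with the smallest p were at Peg3 and Igf2r. The Peg3 start stood at 74.3, 80.8 and 87.5 (lowest, median, highest) without Tet2 and at 32.3, 72.3 and 86.9 with it, a difference of 10.94 ± 4.08 points (SE, limma, unadjusted p = 0.0153, adjusted p = 0.352). The low value of 32.3 was that of P300KO replicate 2. Without this library the difference was smaller, 6.42 points, and so was its p (limma, unadjusted p = 0.00462, adjusted p = 0.239). Ranked among the shared regions only, it was 18.52 points (limma, unadjusted p = 0.000494, adjusted p = 0.0505). The difference was 16.31 points in deposit set 1 alone and 5.58 in set 2 alone. It was 5.44 ± 5.78 between TET2KO and WT and 16.44 ± 5.78 between P300KO_TET2KO and P300KO (SE).

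In Igf2r, an intron region about 4 kb from the Airn start, at chr17:12745683-12746292, stood at 60.6, 76.3 and 82.7 without Tet2 and at 74.9, 79.1 and 83.2 with it. Its fitted difference was −5.07 ± 1.97 points (SE, limma, unadjusted p = 0.0193, adjusted p = 0.377), with −8.88 points in set 1 alone, −1.25 in set 2 alone and −9.15 when ranked among the shared regions only. A region over an Igf2r exon, at chr17:12710044-12710778, stood at 39.9, 55.2 and 64.6 without Tet2 and at 48.1, 61.8 and 76.0 with it, a difference of −8.60 ± 3.57 (SE, limma, unadjusted p = 0.027, adjusted p = 0.411), with −12.12 in set 1 alone and −5.08 in set 2 alone. All 3 pairs of groups overlapped.

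The 4 regions with the highest mean percentile had differences and errors under 1 point, on a part of the scale where little room is left above them. The Kcnq1ot1 start had a median of 93.8 without Tet2 and 93.7 with it, a difference of 0.48 ± 0.59 points (SE). For the Grb10 internal start the difference was 0.34 ± 0.79, for the most 3′ Gnas start 0.80 ± 0.75 and for the Igf2r intron region 0.98 ± 0.66. Ranked among the shared regions only, the difference was 2.62 at this Gnas start and 3.43 at the Igf2r intron region. The H19 upstream region nearer to the gene had medians of 66.1 and 66.9 and a difference of −0.15 ± 4.21. The Igf2 region near Igf2os (11.01 ± 5.81) and the region upstream of Dlk1 (10.07 ± 6.45) had large differences and wide errors. At Igf2 the difference was 22.83 in deposit set 1 alone and −0.81 in set 2 alone, and 6.32 without WT replicate 1. At Dlk1 it was 16.49 and 3.65, and 3.17 without WT replicate 1, which stood at 1.65 while the other 15 libraries lay between 44.9 and 70.9.

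**Figure D4:**
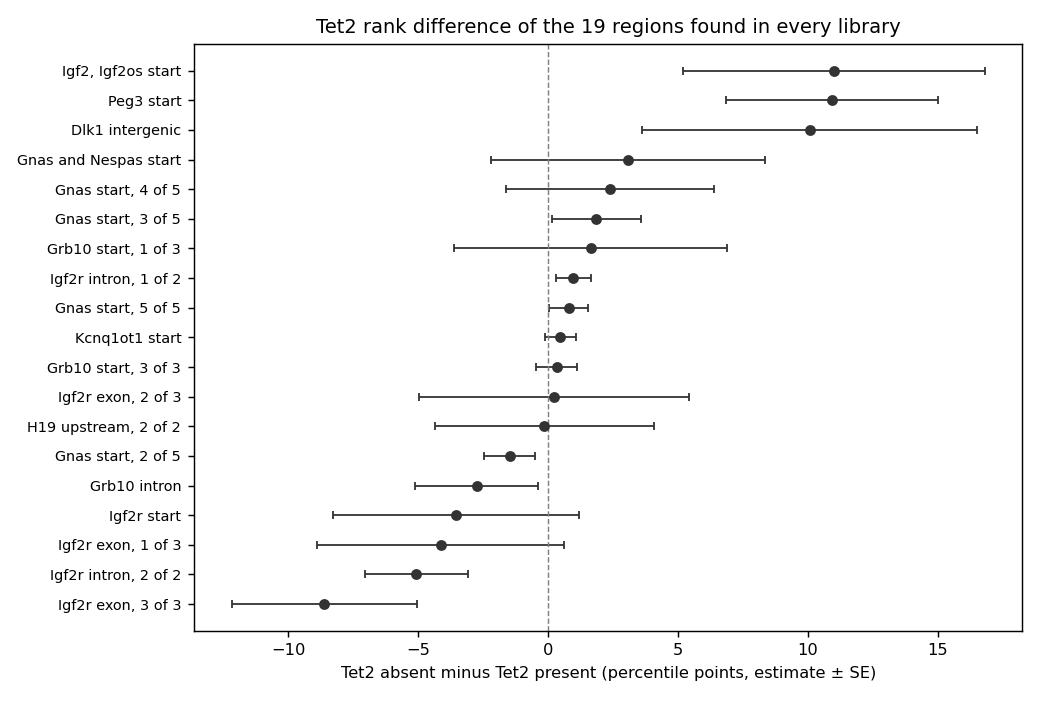
Difference in percentile points between the 8 libraries without Tet2 and the 8 with it (horizontal axis, limma estimate ± SE) for the 19 imprinted regions found in every library, sorted by size and labelled as in the plot of percentiles. The differences run from −8.60 to 11.01, with 12 of 19 above 0, and none was called.

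No imprinted region was called within either p300 genotype. Between TET2KO and WT, 0 of the 19 regions and 0 of 39310 were called with limma, and 1 and 3441 (8.75%) had an unadjusted p under 0.05. Between P300KO_TET2KO and P300KO, 0 of 19 and 41 of 39310 (0.104%) were called, and 2 and 2766 (7.04%) had an unadjusted p under 0.05. These comparisons share no library. A test of the difference between these Tet2 effects called 0 of 19 imprinted regions and 0 of 39310 and gave 0 and 1804 (4.59%) at an unadjusted p under 0.05. Between P300KO_TET2KO and TET2KO, which differ in p300, 0 of 19 and 27 of 39310 (0.0687%) were called, and 1 and 2188 (5.57%) had an unadjusted p under 0.05.

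Of 36 further imprinted genes counted by the same rule, 0 differed in region count with Tet2 at an exact permutation p under 0.05, against 3.12% of all gene loci, a share at which about 1 of 36 would pass. Counts were higher without Tet2 at 16, lower at 13 and equal at 7, with a median difference of 0. The smallest p was at Rasgrf1, a guanine nucleotide exchange factor, with 10.3 ± 4.71 regions without Tet2 and 12.4 ± 3.85 with it (SD, n = 8 each, exact permutation p = 0.0556). Cdkn1c, the cell cycle inhibitor silenced through Kcnq1ot1, had a mean of 6.25 regions in both groups, and Mest had 4.25 without Tet2 and 3.88 with it. Of the 36 genes, 7 (Airn, Ins2, Kcnq1, Nespas, Rtl1, Usp29 and Zim1) share regions with the 10 loci above. In rank, 0 of 67 shared regions at these genes outside the 10 loci were called with limma, against 0.247% of all shared regions, and 8 had an unadjusted p under 0.05, a share near the 10.7% over all.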

How the data were processed

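The 10 genes, the other lists and the tests were chosen with earlier results of these data known. Per the labels, the authors used cutadapt 1.9.1, Bowtie2 2.2.6 and MACS2 2.1.0 on mm10, removed duplicates, shifted reads for Tn5 and called peaks in every library separately. The deposited lists give for each summit the authors' fold enrichment, a ratio to local background, and the authors' −log10 p and −log10 q values. Summits of the same interval were taken as 1 peak with the highest −log10 p. Percentiles were ranks of −log10 p within a list, since signal cannot be compared between lists, and a low rank can follow from other peaks being stronger. Region counts were tested by two-sided exact permutation (1296 arrangements, smallest p 0.00154) and percentiles with limma 3.58.1, trend on (R 4.3.3), with Benjamini-Hochberg adjustment over all features and a threshold of 0.05. The tests of presence, of region counts and of rank were run on simulated data with planted differences, and the other procedures were not. Named were the 10 genes, regions at their annotated starts and within 5 kb upstream of H19, called regions, up to 10 regions with the smallest rank p, and the strongest region of each locus among those in at least 8 libraries, a limit set after the values were seen. Regions outside this rule, those with the widest gap in presence, were chosen after their values were seen. Motif letters and CpGs were read from the RefSeq mm10 genome, in which 165 of 165 promoter sequences compared were identical. Libraries with the same replicate number deviated together from their genotype means (r from 0.135 to 0.565), as did other libraries of the same deposit set (0.191 to 0.561), so the numbers carry the deposit set. Python 3.11.15, numpy 2.4.6, pandas 2.3.3 and pysam 0.24.0 were used. Reads, merged peaks and other assays were not used here. Some marker genes are not reported here.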

Additional observations from a re-analysis of the deposited data

Results flagged for a closer look

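In 18 of 120 sets of 4 libraries of a genotype, a library lay far from the other 3 by Dixon's criterion, which chance alone meets in about 1 of 20. For region counts, small whole numbers reach the criterion whenever 3 libraries are equal. These were H19 in P300KO replicate 4 (5 regions), TET2KO replicate 1 (6) and P300KO_TET2KO replicate 1 (3), Dlk1 in P300KO replicate 1 (4), Meg3 in WT replicate 4 (6), Snrpn in WT replicate 2 (2) and P300KO_TET2KO replicate 3 (2), Gnas in P300KO replicate 1 (10) and P300KO_TET2KO replicate 2 (12), and Grb10 in P300KO replicate 4 (15).

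For percentiles of shared regions, WT replicate 1 was low at the Grb10 intron region (69.8, against a median of 88.9 in the other 3), at the region upstream of Dlk1 (1.65 against 61.3) and at an Igf2r exon region (32.3 against 78.1). TET2KO replicate 1 was low at the 5′ start region of Grb10 (40.1 against 60.4) and TET2KO replicate 2 at the nearer H19 upstream region (52.4 against 66.1). P300KO replicate 2 was low at the Peg3 start (32.3 against 72.4). P300KO_TET2KO replicate 2 stood at 29.6 against 61.4 at an Airn exon region upstream of Igf2r, and WT replicate 2 at 39.4 against 60.4 at the most 5′ shared Gnas start. All 8 values came from libraries of deposit set 1.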

How the results depend on the processing

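The call of 0 imprinted regions in rank was the same in all 26 alternatives, with a smallest adjusted p from limma between 0.0505 (the Peg3 start, ranked among shared regions only) and 0.9999 (no deposit set term). Over all shared regions the count of rank calls moved between 3 (set 1 alone) and 740 (set 2 alone), and it was 384 when ranked among shared regions. Leaving out 1 library gave 49 to 189, against 97, with 189 without WT replicate 1. The replicate block changed no call (0 regions in rank, 0 in presence over 256 arrangements, 0 loci). The presence call became 1 with a −log10 q of at least 2, with and without WT replicate 1. The count of loci with an exact permutation p under 0.05 became 1, Gnas, with a −log10 q of at least 2 and with the strongest 50000 peaks (1.13 regions, exact permutation p = 0.037, where 2.65% of gene loci passed), and stayed 1 in the latter without WT replicate 1 (exact permutation p = 0.0417). These 2 settings without WT replicate 1 were added after the data were seen. Both calls are unadjusted and the cause was not tested. The total difference was 2.75 regions with 2 kb flanks, 2.5 with 50 kb flanks, 2.52 with the strongest 50000 peaks without WT replicate 1, 11 with the q rule and 5.64 with that rule without WT replicate 1. Leaving out 1 library gave 1.71 to 6.57 in total difference, 0 to 0 presence calls, which could hardly arise, and 0 to 0 loci, the difference falling to 2.38 without P300KO replicate 2 and to 2.66 without WT replicate 1, and rising to 6.57 without TET2KO replicate 2. Of 250 locus differences recomputed, 29 changed sign. Each set alone could not reach an exact p under 0.0556, and depth limits every statement that a region was not detected.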

Other observations

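Loss of p300, over both Tet2 backgrounds, also left the imprinted regions without a call in rank. With limma, 0 of the 19 shared regions and 260 of 39310 (0.661%) had an adjusted p under 0.05. At an unadjusted p under 0.05 there were 2 of the 19 and 5045 of 39310 (12.8%). The smallest p was at the most 3′ Gnas start, which had mean percentiles of 92.9 in WT and 92.8 in TET2KO and 89.2 in P300KO and 91.0 in P300KO_TET2KO (n = 4 each). The difference was −2.73 ± 0.75 points (SE, limma, unadjusted p = 0.00183, adjusted p = 0.107). At the Igf2r start the means were 59.96 in WT, 50.1 in TET2KO, 42.6 in P300KO and 45.4 in P300KO_TET2KO, a difference of −11.00 ± 4.74 points (SE, limma, unadjusted p = 0.0323, adjusted p = 0.333).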
